A study of Mus musculus with 8 samples.

Results

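The genes examined here build and supply the axonal and dendritic cytoskeleton of neurons. They are the neurofilament genes Nefl, Nefm, Nefh and Ina, the motor gene Kif5a, the microtubule-associated protein genes Map2 and Mapt, the tubulin gene Tubb3, the stathmin gene Stmn2 and the growth cone gene Gap43. The members were chosen by symbol, and they are 10 of the 54752 genes in the count tables. All 10 passed the filter on low counts, which kept 17136 genes. RNA was sequenced from the right cerebral cortex of 8 male WT C57BL/6 mice (C57BL/6 J in the methods) 3 weeks after surgery, with 1 mouse per library and 4 mice per group. The mice are listed as 14 weeks old, the age at sampling by the schedule in the methods. In the bilateral carotid artery stenosis (BCAS) operation a microcoil is put around each common carotid artery, with the narrower coil on the right, the side that was sequenced. The Sham group had a sham operation, and the comparison asks how cortical expression differs after weeks of reduced blood flow.

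Neurofilaments are the intermediate filaments of mature neurons. Light (Nefl), medium (Nefm) and heavy (Nefh) chains and alpha-internexin (Ina) assemble together, fill large axons and set their caliber, and chains that leak from damaged axons are measured in blood and spinal fluid as a sign of axonal injury. Microtubules form the tracks along which kinesin carries cargo down the axon, tau (Mapt) and MAP2 bind and steady them in axons and dendrites, Tubb3 is the neuronal beta-tubulin, Stmn2 binds tubulin in growing axons, and Gap43 is a membrane protein of growth cones and presynaptic terminals.

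The sequence before the start site is shown for the members that the RefSeq promoter table (build GRCm38.p6) holds. These were 3 of the 10, Ina, Map2 and Tubb3, of which Ina and Tubb3 were called lower after BCAS and Map2 was not. Each stretch runs from 250 bases before to 50 bases after the start that RefSeq gives. Capitals mark matches to any of 4 motifs, searched on both strands, which share no letters with each other in these stretches. The TATA box was searched as TATAAA and the GC box, which Sp1-type factors can bind, as GGGCGG. The CCAAT box was searched by the letters of its name, and the E-box as CACGTG.

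Ina, chr19:47014431-47014730, plus strand: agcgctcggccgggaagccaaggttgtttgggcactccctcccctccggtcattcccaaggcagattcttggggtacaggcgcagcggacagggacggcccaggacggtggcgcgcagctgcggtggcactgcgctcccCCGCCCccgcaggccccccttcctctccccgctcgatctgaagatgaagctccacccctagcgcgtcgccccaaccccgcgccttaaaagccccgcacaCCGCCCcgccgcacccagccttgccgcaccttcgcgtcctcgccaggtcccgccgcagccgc

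Map2, chr1:66175079-66175378, plus strand: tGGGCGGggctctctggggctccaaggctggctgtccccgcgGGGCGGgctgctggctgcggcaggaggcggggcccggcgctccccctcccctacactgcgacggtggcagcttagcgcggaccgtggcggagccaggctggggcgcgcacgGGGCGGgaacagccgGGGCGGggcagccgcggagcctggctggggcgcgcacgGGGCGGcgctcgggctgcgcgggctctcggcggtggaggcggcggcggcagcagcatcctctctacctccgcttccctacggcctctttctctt

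Tubb3, chr8:123411303-123411602, plus strand: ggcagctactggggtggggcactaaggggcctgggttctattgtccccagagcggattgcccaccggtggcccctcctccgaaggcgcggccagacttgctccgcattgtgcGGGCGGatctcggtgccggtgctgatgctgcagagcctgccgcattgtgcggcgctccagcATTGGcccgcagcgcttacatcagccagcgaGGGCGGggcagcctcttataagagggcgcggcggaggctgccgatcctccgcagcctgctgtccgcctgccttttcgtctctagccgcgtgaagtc

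The Map2 stretch held 5 GC boxes, the Ina stretch 2, and the Tubb3 stretch 2 with 1 CCAAT box. None of the 3 held the TATA or E-box letters. Over the 32851 promoters of the table, 35.7% held a GC box, 37.4% a CCAAT box, 13.6% a TATA box and 7.15% an E-box. The GC content was 71.7% for Ina, 77.7% for Map2 and 67.3% for Tubb3, against a median of 52.7%. These matches describe letters and not binding.

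Total counts were 16759364 to 21794435 per library, so that 3 counts corresponded to at most 0.179 CPM (counts scaled to a common library size), and every member was far above this level in every mouse. Before normalization the 10 genes together took 0.742% to 0.857% of the counts in the Sham group and 0.374%, 0.705%, 0.521% and 0.53% in BCAS mice 1 to 4. CPM below are normalized by the trimmed mean of M-values (TMM), and differences are log2 fold changes of BCAS against Sham with their standard error (SE) from the quasi-likelihood test of edgeR. A gene was called when its Benjamini-Hochberg adjusted p over all tested genes was under 0.05.

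In BCAS mice 5 of the 10 genes were called lower, namely Nefl, Nefm, Ina, Kif5a and Tubb3, where 12.8% of all tested genes were called lower. No member was called higher, by edgeR or by DESeq2, where edgeR called 19.2% of all tested genes higher. The log2 fold change was negative for all 10, from −0.96 (Nefm) to −0.26 (Gap43), with a median of −0.71 against −0.01 over all tested genes. No member passed the fold threshold of the study as well (a log2 fold change below −1), which 1.28% of tested genes did. All 4 BCAS values lay below all 4 Sham values for 7 of the 10 genes, where this held for 16.3% of tested genes, and the exceptions were Nefh, Map2 and Gap43. In bulk tissue, fewer neurons and less RNA per neuron cannot be told apart.

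**Figure D1:**
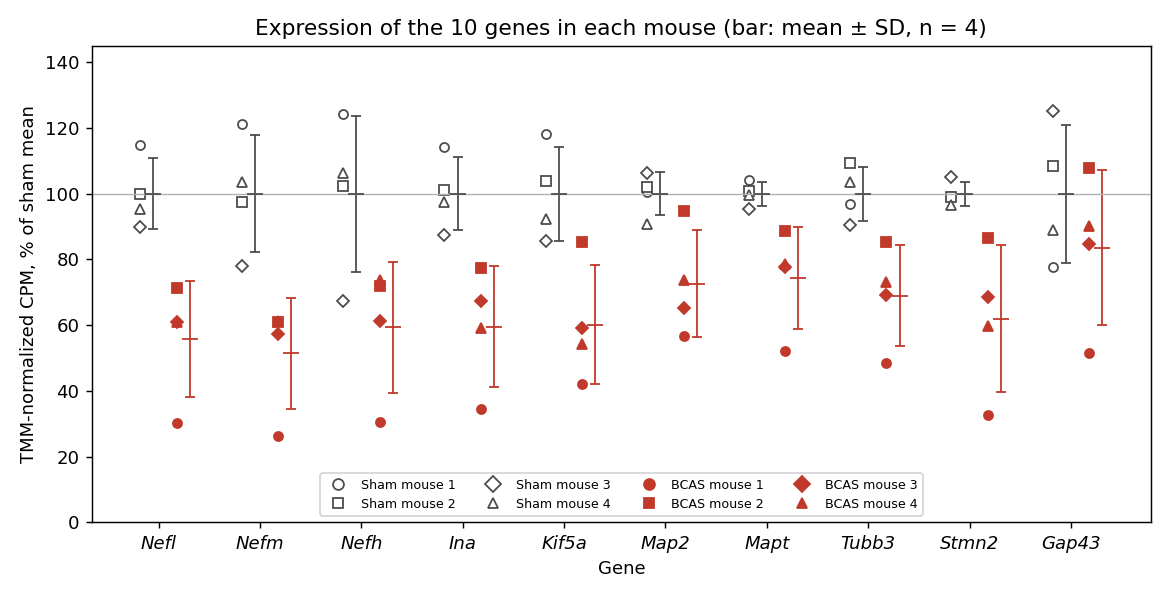
TMM-normalized CPM of the 10 genes in each mouse, as a percentage of the mean of the Sham mice, with Sham mice as open and BCAS mice as filled symbols and bars giving the mean ± SD (n = 4). BCAS mouse 1 is the lowest BCAS mouse for all 10 genes, and the groups overlap only for Nefh, Map2 and Gap43.

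The neurofilament genes had the most negative log2 fold changes of the 10. Nefm, the medium chain, read 297, 239, 191 and 254 CPM in Sham mice 1 to 4, whereas BCAS mice 1 to 4 had 64.5, 149, 141 and 149.8 CPM. Every BCAS mouse was below the lowest Sham mouse, and BCAS mouse 1 stood far below the others. The mean fell from 245 ± 43.6 to 126 ± 41.3 CPM (SD, n = 4), to 51.5% of the Sham mean, a log2 fold change of −0.96 (SE 0.26, edgeR adjusted p = 0.0242). Among the tested genes 2.30% had a more negative log2 fold change than Nefm.

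Nefl, the light chain, read 433, 376, 338 and 359.8 CPM in Sham mice 1 to 4 and 114, 269, 229 and 229 CPM after BCAS. The groups did not overlap, and again BCAS mouse 1 was lowest and BCAS mouse 2 nearest to the Sham mice. The mean fell from 377 ± 40.5 to 210.4 ± 66.8 CPM (SD, n = 4), a log2 fold change of −0.84 (SE 0.23, edgeR adjusted p = 0.0265).

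Ina, which encodes alpha-internexin, read 251.5, 223, 192.5 and 215 CPM in Sham mice 1 to 4 and 75.8, 170.4, 148 and 131 CPM after BCAS. No BCAS mouse reached the lowest Sham mouse. The mean fell from 220.4 ± 24.4 to 131 ± 40.4 CPM (SD, n = 4), a log2 fold change of −0.75 (SE 0.22, edgeR adjusted p = 0.0314).

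Nefh, the heavy chain, read 108, 89.3, 58.8 and 92.8 CPM in Sham mice 1 to 4 and 26.7, 62.7, 53.4 and 64.3 CPM after BCAS. The groups overlapped, since Sham mouse 3 was below BCAS mice 2 and 4. The means were 87.3 ± 20.8 and 51.8 ± 17.4 CPM (SD, n = 4), and the log2 fold change of −0.76 (SE 0.28) did not pass the test (edgeR adjusted p = 0.0627). Of the edgeR fits without 1 mouse, it passed only in those without Sham mouse 3 (−0.91, adjusted p = 0.0479) or BCAS mouse 2 (−0.85, adjusted p = 0.0381). Without each of the other 6 mice its adjusted p was 0.0511 to 0.153. On all 8 mice, Nefh was called by DESeq2 (adjusted p = 0.0279) and by limma-voom with sample quality weights (adjusted p = 0.0115).

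On the mm10 genome, with the GENCODE vM20 coordinates of the count tables, Nefl (ENSMUSG00000022055.7) lies at chr14:68083863-68089095 on the plus strand and Nefm (ENSMUSG00000022054.11) at chr14:68082590-68124846 on the minus strand. The exons of the 2 genes share 1108 bases at chr14:68083863-68084970, which is 32.8% of the Nefl exon bases and includes 1008 bases of its coding part, and 19.2% of those of Nefm, from 1 of its 2 annotated transcripts. Ina shares 456 bases (14.1%) with 1 of 15 annotated transcripts of Nt5c2 on the opposite strand. Reads were counted without strand and with no option for reads on more than 1 gene, so reads in these stretches cannot be assigned to 1 gene, and the levels of Nefl, Nefm and Ina are less certain than their counts alone would give. Map2 shared 0.754% of its exon bases with another gene, and the remaining 6 members none.

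The mix of neurofilament transcripts was compared as the share of each gene in the summed counts per kilobase of exon of the 4 genes. The full exon length was used, with the shared bases of Nefl, Nefm and Ina kept in, so the shares themselves are less certain. Nefl made up 45.1%, 45.6%, 48.3% and 44.4% of the sum in the Sham group and 45.03%, 45.8%, 44.8% and 45.2% after BCAS. It was thus the largest component in every library, and its mean share was 45.9% ± 1.70 in Sham and 45.2% ± 0.44 in BCAS mice (SD, n = 4, exact two-sided permutation p = 0.657). The share of Nefm was 17.3% ± 1.08 in Sham and 15.8% ± 1.15 in BCAS mice (exact permutation p = 0.143). The share of Nefh was 8.88% ± 1.20 and 9.38% ± 0.898 (exact permutation p = 0.571), and that of Ina was 28.0% ± 0.605 and 29.6% ± 1.92 (exact permutation p = 0.143). None of the 4 shares passed the test, with adjusted values of 0.25 to 0.767 over the 7 share comparisons made, and the smallest p that 4 against 4 mice allow is 0.0286. A single share at that p could not pass after this adjustment.

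**Figure D2:**
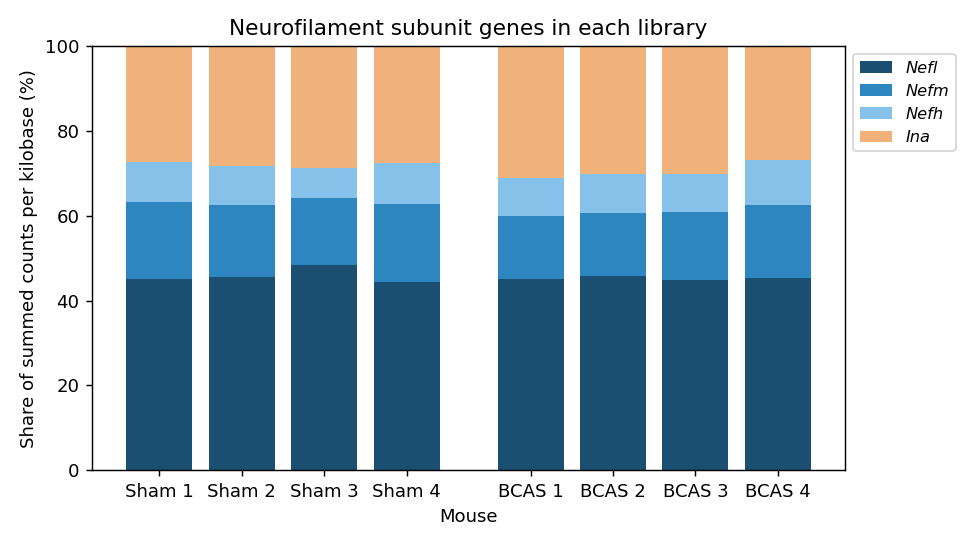
Shares of Nefl, Nefm, Nefh and Ina in their summed counts per kilobase of exon (%), 1 stacked bar per mouse. Nefl takes 44.4% to 48.3% in every library, and no share differed between Sham and BCAS mice by the exact permutation test.

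Kif5a encodes a neuronal heavy chain of kinesin-1, the motor that carries cargo outward along axons and takes part in neurofilament transport. It had the highest level of the set per kilobase of exon, 617 ± 88.4 CPM per kilobase in Sham mice, where Tubb3 followed with 176 ± 14.6. Kif5a read 5097, 4479, 3688 and 3977 CPM in Sham mice 1 to 4 and 1814, 3671, 2551 and 2342 CPM after BCAS. BCAS mouse 2 was only just below Sham mouse 3, while BCAS mouse 1 had less than any other mouse. The mean fell from 4310 ± 618 to 2594 ± 782 CPM (SD, n = 4), a log2 fold change of −0.73 (SE 0.23, edgeR adjusted p = 0.0409).

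The other kinesin-1 heavy chains allowed a comparison within the family. Kif5c, also neuronal, fell from 1299 ± 129 to 792.5 ± 265 CPM (SD, n = 4, log2 fold change −0.71, SE 0.23, edgeR adjusted p = 0.0437). Kif5b, which is made in most cell types, read 395 ± 39.0 CPM in Sham and 391 ± 22.2 CPM in BCAS mice (log2 fold change −0.02, SE 0.10, adjusted p = 0.91). The share of Kif5a in the counts per kilobase of the 3 genes was 73.6%, 73.2%, 70.5% and 73.1% in the Sham group and 69.1%, 71.4%, 69.2% and 68.9% after BCAS. The groups overlapped in 1 mouse each, and the means of 72.6% ± 1.42 and 69.7% ± 1.16 did not differ by the test (SD, n = 4, exact two-sided permutation p = 0.0571, adjusted p = 0.25).

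Neither of the microtubule-associated protein genes of the set passed the test. Mapt, which encodes tau, read 536, 518, 489 and 512 CPM in Sham mice 1 to 4 and 268, 455, 398.5 and 404 CPM after BCAS. The groups did not overlap and the Sham mice lay close together, but the log2 fold change of −0.43 (SE 0.15) did not pass (edgeR adjusted p = 0.0588), with means of 514 ± 19.1 and 381 ± 79.7 CPM (SD, n = 4). On all 8 mice, DESeq2 (adjusted p = 0.0238) and limma-voom with sample quality weights (adjusted p = 0.00421) did call Mapt. Of the edgeR fits without 1 mouse, Mapt passed only in those without BCAS mouse 1 (−0.28, adjusted p = 0.026) or BCAS mouse 2 (−0.51, adjusted p = 0.018). Without each of the other 6 mice its adjusted p was 0.0886 to 0.128.

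Map2, whose product marks dendrites and cell bodies, read 1461, 1481, 1545 and 1318 CPM in Sham mice 1 to 4 and 825, 1374, 945 and 1071 CPM after BCAS. BCAS mouse 2 lay above Sham mouse 4, and the other BCAS mice were below all Sham mice. The log2 fold change was −0.46 (SE 0.17, edgeR adjusted p = 0.0611), with means of 1451 ± 95.9 and 1054 ± 236 CPM (SD, n = 4). Of the 8 fits without 1 mouse it passed only in that without BCAS mouse 2 (−0.60, adjusted p = 0.00494), and the others gave an adjusted p of 0.0781 to 0.152.

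Tubb3 read 319, 360.4, 298 and 341 CPM in Sham mice 1 to 4 and 159.9, 281, 228 and 241 CPM after BCAS. No BCAS mouse reached the lowest Sham mouse. The mean fell from 329.6 ± 27.2 to 227 ± 50.4 CPM (SD, n = 4), a log2 fold change of −0.54 (SE 0.16, edgeR adjusted p = 0.0342). The share of Tubb3 in the counts per kilobase of 6 beta-tubulin genes was 17.6% ± 0.957 in Sham and 15.2% ± 1.29 in BCAS mice (SD, n = 4), with BCAS mice 2 and 4 just above Sham mouse 3 (exact permutation p = 0.0857, adjusted p = 0.25). Tubb4a and Tubb4b fell as well (log2 fold changes −0.51 and −0.34, edgeR adjusted p = 0.0369 and 0.0473). Tubb2b rose from 93.2 ± 11.9 to 123 ± 19.5 CPM (SD, n = 4, log2 fold change 0.40, adjusted p = 0.0456), and Tubb2a and Tubb5 did not pass (log2 fold changes −0.26 and −0.17, adjusted p = 0.306 and 0.179).

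Stmn2 read 365.5, 364, 386 and 355 CPM in Sham mice 1 to 4 and 120.2, 318, 253 and 220 CPM after BCAS. The Sham mice were within a narrow range and every BCAS mouse was below it. The spread among BCAS mice was wide, and the log2 fold change of −0.69 (SE 0.24) did not pass (edgeR adjusted p = 0.0561), with means of 368 ± 13.4 and 228 ± 82.4 CPM (SD, n = 4). Of the 8 edgeR fits without 1 mouse, it passed only in those without BCAS mouse 1 (−0.47, adjusted p = 0.0182) or BCAS mouse 2 (−0.88, adjusted p = 0.00965). The other 6 such fits gave an adjusted p of 0.0931 to 0.118. On all 8 mice, Stmn2 was called by DESeq2, limma on log2(CPM + 1) and limma-voom with sample quality weights. The 3 other stathmins tested, Stmn1, Stmn3 and Stmn4, were called lower, with log2 fold changes of −0.68, −0.74 and −0.57 (adjusted p = 0.0251, 0.0421 and 0.0282), but none of them without Sham mouse 1, 2 or 4 or BCAS mouse 3 or 4 and 1 without Sham mouse 3. The share of Stmn2 in the counts per kilobase of the 4 stathmins was 8.34% ± 0.623 in Sham and 8.20% ± 0.65 in BCAS mice (SD, n = 4, exact permutation p = 0.8286).

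Gap43 had the smallest change of the set. It read 170, 238, 274 and 195 CPM in Sham mice 1 to 4 and 113, 237, 185 and 198 CPM after BCAS. BCAS mouse 1 was the only one below all Sham mice. The log2 fold change was −0.26 (SE 0.23, edgeR adjusted p = 0.394), with means of 219 ± 46.0 and 183 ± 51.6 CPM (SD, n = 4).

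Per kilobase of exon, the order of levels in Sham mice was Kif5a, Tubb3, Gap43, Nefl, Map2, Mapt, Ina, Stmn2, Nefm and Nefh, down to 21.9 ± 5.20 CPM per kilobase for Nefh (SD, n = 4). The ranges over the Sham mice overlapped between Tubb3 and Gap43, Gap43 and Nefl, Mapt and Ina, and Ina and Stmn2, so these neighbours did not separate. The shared bases of Nefl, Nefm and Ina were kept in the exon length, so their places are less certain. In BCAS mice the ranges of Map2 and Nefl overlapped (64.1 ± 14.4 and 62.3 ± 19.8 CPM per kilobase), as did those of Stmn2 and Ina (40.6 ± 14.7 and 40.5 ± 12.5 CPM per kilobase), so no change of place was read between them.

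The BCAS mice kept nearly the same extremes across the set. BCAS mouse 1 was the lowest BCAS mouse for all 10 genes, and BCAS mouse 2 was the highest for 8, with BCAS mouse 4 highest for Nefm and Nefh. The mean log2 change of the 10 genes from the Sham mean was −1.34, −0.28, −0.57 and −0.55 in BCAS mice 1 to 4. In BCAS mouse 2, 7 of the 10 genes were below all Sham mice, against 10, 9 and 8 in BCAS mice 1, 3 and 4. Among Sham mice the same mean ran from −0.11 to 0.10, and Sham mouse 3 was the lowest for 7 genes.

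The calls depended on single mice, among the 10 genes and over all genes. Leaving out BCAS mouse 1 gave 7 lower calls among the 10, leaving out BCAS mouse 2 gave 9, leaving out Sham mouse 3 gave 4, and leaving out BCAS mouse 4 gave 1, Nefm. In these fits 11.2%, 20.9%, 8.21% and 4.03% of all tested genes were called lower. Without Sham mouse 1, 2 or 4 or BCAS mouse 3, edgeR called none, with 8 or 9 of the 10 at an unadjusted p under 0.05 in each of these fits, where 2.37%, 2.95%, 3.09% and 4.19% of all tested genes were called lower. Of the 5 genes called on all 8 mice, the largest adjusted p without 1 mouse was 0.0748 for Nefl, 0.0714 for Nefm, 0.0847 for Ina and 0.1075 for Kif5a, each without Sham mouse 1, and 0.0909 for Tubb3 without Sham mouse 2. All 10 log2 fold changes stayed negative without any 1 mouse, and their median lay between −0.87 and −0.50. DESeq2 called 9 of the 10 lower on all 8 mice, Gap43 excepted, where it called 18.2% of all tested genes lower.

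Other neuronal transcripts, 12 genes of synapses, neuronal nuclei and neuronal metabolism, served as a reference. Of these, 7 of 12 were called lower and none higher, with a median log2 fold change of −0.71, the same to 2 decimals as that of the axonal cytoskeleton genes. Nrgn, a postsynaptic calmodulin-binding protein, fell by 1.15, Snap25, a synaptic fusion protein, fell by 1.07, and Rbfox3, the neuronal nuclear antigen NeuN, fell by 0.91 on the log2 scale (edgeR adjusted p = 0.0249, 0.0172 and 0.0115). Rbfox3 was called in each of the 8 fits without 1 mouse, and none of the 10 cytoskeleton genes was. The count of 7 fell to 1 when Sham mouse 1 or 4 or BCAS mouse 4 was dropped, to 2 without Sham mouse 2 or BCAS mouse 3 and to 4 without Sham mouse 3, and rose to 12 without BCAS mouse 2. Scaling by library size alone gave 3, where 7.55% of all tested genes were called lower. The summed level of the 12 reference genes was 11850 to 14040 CPM in Sham and 4415, 10340, 8032 and 7406 CPM in BCAS mice 1 to 4.

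**Figure D3:**
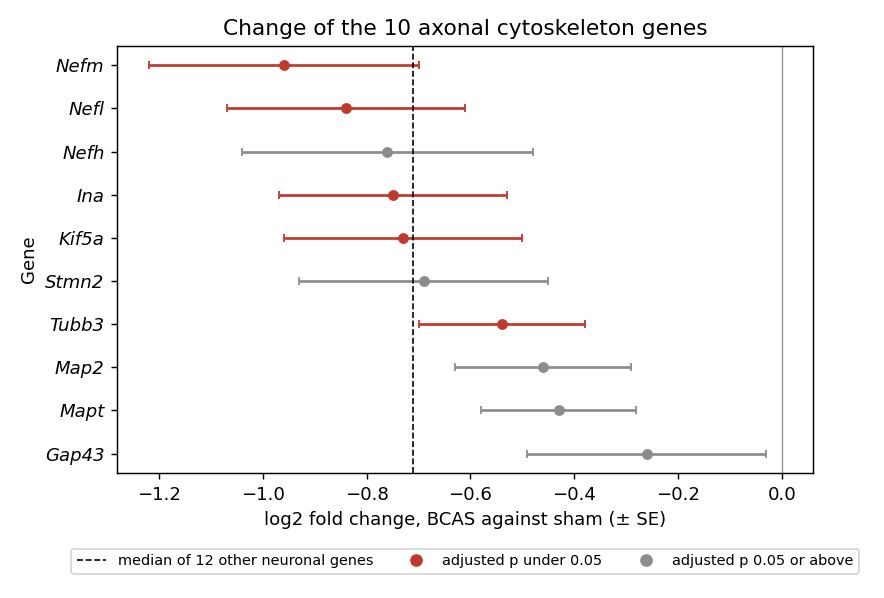
Log2 fold change of BCAS against Sham mice with its standard error for the 10 axonal cytoskeleton genes, red where the edgeR adjusted p was under 0.05, with a dashed line at the median of the 12 other neuronal genes. All 10 lie below 0, 5 are called, and the line stands at −0.71.

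Each member was then set against this reference in its own library, as its log2 CPM minus the mean log2 CPM of the 12 genes, which asks whether it moved more or less than other neuronal transcripts. For Mapt the BCAS mean of this value minus the Sham mean was 0.33, with all 4 BCAS mice above all 4 Sham mice (SD 0.02 in Sham and 0.19 in BCAS, exact two-sided permutation p = 0.0286, adjusted over the 10 genes 0.286). For Gap43, Map2 and Tubb3 it was 0.50, 0.30 and 0.22 (exact permutation p = 0.0857, 0.0857 and 0.114). For Nefm and Nefl it was −0.24 and −0.12 (exact permutation p = 0.171 and 0.20). For Nefh and Ina it was −0.02 each, and for Kif5a and Stmn2 0.01 each. None of the 10 passed after adjustment, 1 had an exact permutation p under 0.05 before it, and 0.0286 is the smallest p the design allows. Mapt alone could not pass after adjustment even at that p, so the adjusted test cannot decide for it. With the median of the 12 genes as the reference in place of the mean, Mapt was at 0.16 (exact permutation p = 0.171) and the signs for Kif5a and Stmn2 turned, to −0.15 and −0.16.

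**Figure D4:**
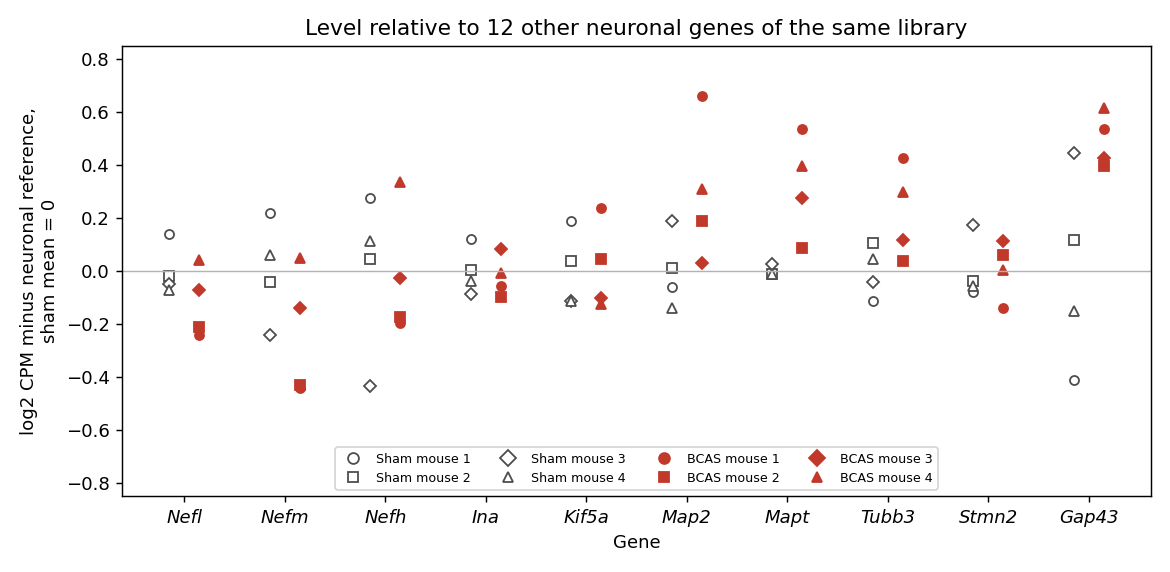
Log2 CPM of each of the 10 genes minus the mean log2 CPM of 12 other neuronal genes of the same library, with the Sham mean of each gene set to 0 (open symbols Sham, filled symbols BCAS). All 4 BCAS mice lie above the Sham mice for Mapt, and for no other gene do the groups separate.

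Further genes of the axonal cytoskeleton and of transport were counted in lists. For the lists here and below, edgeR called 12.8% of all tested genes lower and 19.2% higher. Among 19 kinesins and their adaptors, 11 were called lower and none higher by edgeR or DESeq2, with 1 higher at an unadjusted p under 0.05 (median log2 fold change −0.43). Klc2, a kinesin light chain, fell by 0.84 and Kif17, a kinesin of dendrites, fell by 0.62 on the log2 scale (edgeR adjusted p = 0.027 and 0.0192). Among 17 genes of dynein and dynactin, the motor for transport toward the cell body, 7 were called lower and none higher, also at an unadjusted p under 0.05 and by DESeq2 (median −0.32). Of these, the intermediate chain gene Dync1i1 fell by 0.66 and the dynein regulator Ndel1 fell by 0.47 (edgeR adjusted p = 0.0123 and 0.0106), and both were called in each fit without 1 mouse. The lower calls among kinesins and adaptors numbered 0 without Sham mouse 1, 2 or 4, 1 without BCAS mouse 3, 2 without BCAS mouse 4, 4 without Sham mouse 3 and 15 without BCAS mouse 2, where 2 were also called higher. Those among dynein and dynactin genes numbered 12 without BCAS mouse 2, 2 without Sham mouse 2 and 3 without Sham mouse 1, 3 or 4 or BCAS mouse 3 or 4. With library size alone as the scaling, 4 kinesin and adaptor genes were called lower and 1 higher, and 3 dynein and dynactin genes were called lower.

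Among 20 other microtubule-associated protein genes, 11 were called lower and 1 higher (median −0.50). Mtcl1, a microtubule crosslinker, fell by 0.82, Map7d2, which recruits kinesin, fell by 0.73 and Map9 fell by 0.66 on the log2 scale (edgeR adjusted p = 0.0179, 0.0271 and 0.0409). Mapre1, which encodes the plus-end binding protein EB1 of most cell types, rose from 111 ± 6.31 to 152 ± 22.5 CPM (SD, n = 4, log2 fold change 0.46, adjusted p = 0.0183). Among 13 tubulins other than Tubb3, 5 were called lower and 3 higher (median −0.26), the higher calls near the share over all tested genes (19.2%). Beside the beta-tubulins above, Tuba4a fell by 0.73 and the gamma-tubulins Tubg2 and Tubg1 fell by 0.64 and fell by 0.37, while Tuba1c rose by 0.93 and Tubb6 by 1.11 on the log2 scale (edgeR adjusted p = 0.0318, 0.0138, 0.0324, 0.0191 and 0.0292). Without Sham mouse 1, 2 or 4 or BCAS mouse 3 or 4, at most 1 gene of each of these 2 lists was called lower, and 4 of each were without Sham mouse 3. Without Sham mouse 1 or 4 or BCAS mouse 3, no tubulin was called higher, 1 was without Sham mouse 2, and without Sham mouse 1 or 4 Mapre1 was not called. Library size alone gave 7 lower calls among the microtubule-associated protein genes and 2 among the tubulins.

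Among 14 genes of the axon initial segment and axonal spectrin, which anchor sodium channels where the axon begins, 5 were called lower and none higher, also at an unadjusted p under 0.05 and by DESeq2 (median −0.49). Among those called were the sodium channel gene Scn8a, the paranodal gene Cntnap1 and the ankyrin gene Ank3, with log2 fold changes of −0.83, −0.76 and −0.54 (edgeR adjusted p = 0.034, 0.0393 and 0.0395). Among 12 kinases and phosphatases that act on tau, 8 were called lower and none higher, likewise at an unadjusted p under 0.05 and by DESeq2 (median −0.40). Cdk5r2 and Cdk5r1, the activators of the neuronal kinase Cdk5, fell by 0.81 and fell by 0.69, and Mark1, a kinase that frees tau from microtubules, fell by 0.65 on the log2 scale (edgeR adjusted p = 0.0199, 0.0215 and 0.0121). Leaving out 1 mouse gave 0 lower calls among the axon initial segment genes for Sham mice 1, 2 and 4 and BCAS mice 3 and 4, 1 for Sham mouse 3 and 12 for BCAS mouse 2. Among the tau kinases and phosphatases it gave 2 for Sham mice 1, 2 and 4, 3 for BCAS mice 3 and 4, 5 for Sham mouse 3 and 10 for BCAS mouse 2. Under library size alone the lower calls were 3 among the axon initial segment genes and 4 among the tau kinases and phosphatases.

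Among 15 growth cone genes, 5 were called lower and 3 higher (median −0.34), the higher calls near the share over all tested genes (19.2%). Basp1, a membrane protein related in function to Gap43, fell from 749 ± 47.5 to 482 ± 111 CPM, and Crmp1, a collapsin response mediator, fell from 212 ± 11.01 to 141 ± 35.2 CPM (SD, n = 4, edgeR adjusted p = 0.0228 and 0.0261). Ppp1r9a, an actin-binding protein, Dpysl2 and Rtn4 were the others called lower (log2 fold changes −0.57, −0.42 and −0.37). Marcks, an actin-regulating kinase substrate also made by glia, rose from 224 ± 36.1 to 337 ± 62.6 CPM (adjusted p = 0.0231), and Cap1 and Dpysl3 were the others called higher (0.37 and 0.33). Without Sham mouse 1, 2 or 4 or BCAS mouse 3, no gene of this list was called, without BCAS mouse 4 none was called lower, without Sham mouse 3, 2 were, and without BCAS mouse 2, 8 were. By library size alone 3 were called lower and 3 higher.

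Among 12 tested genes of axonal injury and regeneration, 3 were called higher and none lower (median 0.27), with 3 lower at an unadjusted p under 0.05 and 1 by DESeq2, while Sprr1a and Gal did not pass the low-count filter. Over all tested genes 19.2% were called higher, so 3 of 12 is near that share. Atf3, a stress-induced transcription factor, rose from 0.799 ± 0.518 to 20.1 ± 13.98 CPM, and Plaur, the urokinase receptor, rose from 1.33 ± 0.374 to 10.2 ± 4.59 CPM (SD, n = 4, log2 fold changes 4.63 and 2.93, edgeR adjusted p = 0.00343 and 0.00279). Hspb1, a small heat shock protein, rose by 1.22 on the log2 scale (adjusted p = 0.0448). Plaur is also expressed by myeloid cells. Atf3 had 21, 9, 22 and 3 counts in Sham mice 1 to 4. It passed the low-count filter only through the BCAS mice, so the filter favoured its higher call. The higher calls numbered 2 to 6 without 1 mouse, with 2 without Sham mouse 1, 2 or 4 or BCAS mouse 1 or 3 and 6 without BCAS mouse 2, where 3 genes were also called lower. Atf3 and Plaur were called in each of these fits.

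**Figure D5:**
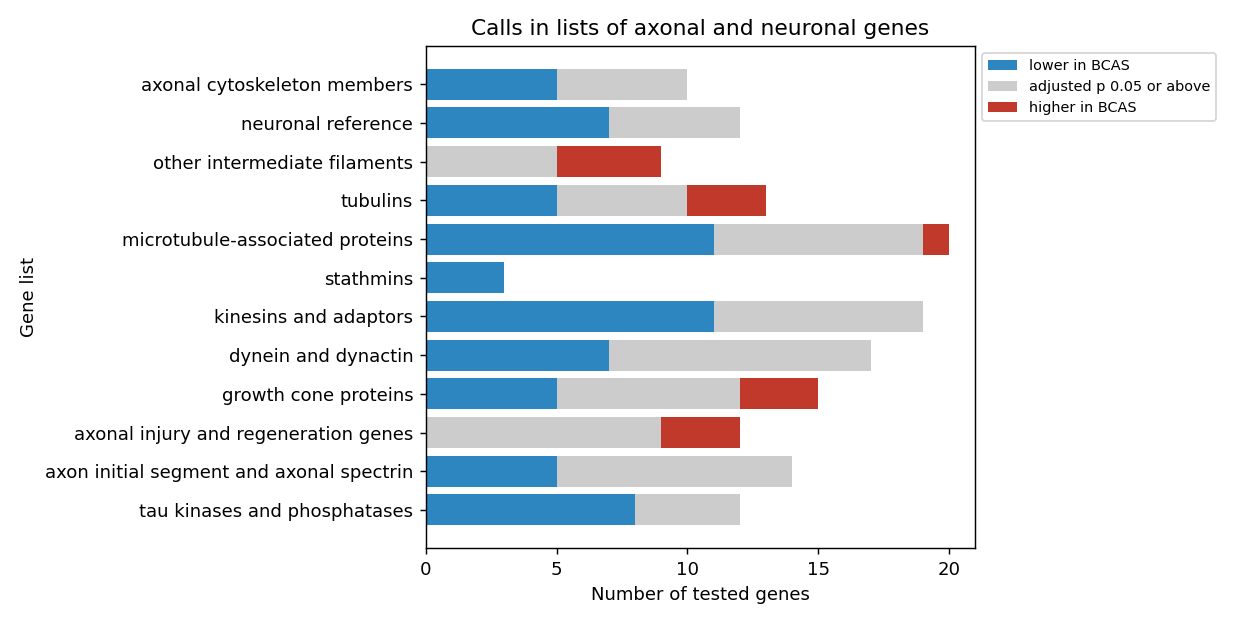
Number of tested genes in each list that edgeR called lower (blue), did not call (grey) or called higher (red) in BCAS against Sham mice. Kinesins and adaptors, dynein and dynactin, stathmins, axon initial segment genes and tau kinases hold lower calls only, and other intermediate filaments and axonal injury genes hold higher calls only. Over all tested genes 12.8% were called lower and 19.2% higher.

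Among 9 other intermediate filament genes, including nuclear lamins, 4 were called higher and none lower, also at an unadjusted p under 0.05 and by DESeq2 (median 0.71). Gfap, the filament of astrocytes, read 124, 167, 175 and 156 CPM in Sham mice 1 to 4 and 3427, 979, 2578 and 2297 CPM after BCAS. Vim, made by astrocytes, microglia and vessels, rose from 43.0 ± 7.86 to 498.5 ± 309 CPM (SD, n = 4). Both groups separated widely, with log2 fold changes of 3.90 (SE 0.36) and 3.53 (SE 0.46) (edgeR adjusted p = 0.00146 and 0.00215). BCAS mouse 1, lowest for the neurofilament genes, was highest for both, and BCAS mouse 2 was the lowest BCAS mouse for both. The other 2 called higher were Nes (nestin) and Lmnb1 (a nuclear lamin), with log2 fold changes of 0.96 and 0.71 (adjusted p = 0.0366 and 0.0231). Gfap and Vim were called in each fit without 1 mouse, and the count of 4 fell to 2 without Sham mouse 1, 2 or 3 or BCAS mouse 3, with 1 gene called lower without Sham mouse 3.

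Markers of other cell types moved with these results, and their part in the lower levels of the cytoskeleton genes was not tested. All 10 microglial markers were called higher, and their summed level was 375 to 457 CPM in the Sham group and 7315, 1869, 3787 and 3780 CPM in BCAS mice 1 to 4. Of 9 leukocyte markers, the 3 that passed the low-count filter, Ptprc, Ccr2 and Cd8a, were called higher. The summed level of these 3 was 5.29 to 8.92 CPM in Sham and 286.5, 42.7, 158 and 91.3 CPM in BCAS mice. Sham mice 1 to 4 had only 1, 3, 0 and 2 counts of Cd8a and 7, 21, 15 and 6 of Ccr2. These genes passed the filter only through the BCAS mice, so the filter favoured their higher calls. The microglial call held in each fit without 1 mouse. Of 8 astrocyte markers 5 were called higher (Aqp4, Sox9, Gja1, Aldh1l1 and Slc1a3), with 3 in the fits without Sham mouse 2, 3 or 4 or BCAS mouse 3 or 4, with summed levels of 5187 to 6117 CPM in Sham and 6077 to 7069 CPM in BCAS mice. None of 8 oligodendrocyte markers was called by edgeR, with 1 higher at an unadjusted p under 0.05, 1 higher by DESeq2, 1 higher under library size alone and 3 higher without BCAS mouse 2, and their summed level was 3898 to 6283 CPM in Sham, lowest in Sham mouse 3, and 5471 to 8496 CPM in BCAS mice.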

How the data were processed

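RNA of the right cerebral cortex was sequenced as read pairs. According to the methods and the submitters' processing notes, the authors trimmed the reads, aligned them to mm10 with HISAT2, sorted them with SAMtools 1.9 and counted read pairs per gene with featureCounts. The authors deposited raw gene counts, 1 table per mouse, without normalization. The tables' header names featureCounts 2.0.1 and GENCODE vM20 with no strand option, whereas the methods name 1.6.3 and RefSeq genes. Symbols were matched by gene ID for 99.9% of genes.

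Groups follow the labels. All values were computed from the counts. In R 4.3.3 with edgeR 4.0.16, genes were filtered (filterByExpr, minimum count 10, minimum total 15), normalized by TMM and tested for BCAS against Sham with the quasi-likelihood F-test, on all 8 libraries and without covariates, with Benjamini-Hochberg adjustment over 17136 genes. The study used limma on normalized log2 counts, which is an alternative here. CPM on the log2 scale has a prior count of 2. For shares and differences from the neuronal reference, all 70 ways to split the 8 mice gave an exact two-sided permutation p. The fits were tested on simulated data. Figures used matplotlib 3.10.9 in Python 3.11.15.

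The alternatives were other size factors (DESeq2, upper quartile, library size alone), other filters (1 count in total, 10 counts in every library), DESeq2 1.42.0, and limma 3.58.1 as voom, with sample quality weights and on log2(CPM + 1). The replicate number as a block, leaving out each mouse, raw counts for the shares, and the median or a prior count of 0.5 for the reference were also tried. The members, lists and rules were chosen with earlier results of these data known. Of each list, up to 3 genes that rose and 3 that fell were named, those with the largest changes among called genes whose groups did not overlap, with the genes that enter a share. Hspb1, Nes, Tubb6, Tubg1, Ank3, Dpysl2, Rtn4, Gad2, Tac1 and marker genes named without values were named after their values were seen. Ddit3 of the injury list had no unique row. Some genes of the lists are not reported here singly. Proteins were not analysed here.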

Additional observations from a re-analysis of the deposited data

Results flagged for a closer look

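In 54 groups of 4 values, the highest or lowest mouse was tested against the other 3 by Dixon's ratio at its 95% critical value, which chance passes in about 1 of 20 groups, and 7 passed. For Nefm, BCAS mouse 1 had 64.49 CPM against 140.8 CPM in the next BCAS mouse (ratio 0.894). Sham mouse 3 was the outlying library in 4 of the others. Relative to the neuronal reference on the log2 scale it stood at −0.4466 for Mapt (next mouse −0.4845, ratio 0.943) and at −0.7874 for Stmn2 (next −0.9963, ratio 0.841), in both cases above the other Sham mice. It also had the lowest Sham share of Kif5a among the Kif5 genes, 70.52% (next 73.15%, ratio 0.846), and the highest Sham share of Stmn2 among the stathmins, 9.274% (next 8.063%, ratio 0.951). In BCAS mice the Kif5a share was high in mouse 2, at 71.39% (next 69.22%, ratio 0.883), and the Nefh share of the neurofilament genes was high in mouse 4, at 10.72% (next 9.037%, ratio 0.892).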

How the results depend on the processing

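Of the 10 genes, 5 were called by edgeR on all 8 mice. DESeq2 and limma-voom with sample quality weights called 9 each, with 18.2% and 22.5% of all tested genes called lower against 12.8% with edgeR, and leaving out 1 mouse at a time gave 0 to 9. The fit by limma on log2(CPM + 1) called 5, with Stmn2 in place of Kif5a (limma adjusted p = 0.058 for Kif5a), and 14.8% of all tested genes lower. Past a log2 fold change of −1 as well, the count of 0 became 1 under limma-voom and under limma on log2(CPM + 1), and 0 to 1 without 1 mouse. The median log2 fold change of the 10 was −0.71 and stayed between −0.87 and −0.50, and every member's change stayed negative, in all these fits. The cause of the differences between fits was not tested. Relative to the median of the neuronal reference, Kif5a stood at −0.15 and Stmn2 at −0.16, where the mean gave 0.01 for both.

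Over all genes, scaling by library size alone made 24.5% of calls lower, against 40.1% with TMM, moved the median log2 fold change to 0.08, and called 4 of the 10 (Tubb3 was lost) and 7.55% of all tested genes lower, against 12.8%. All calls numbered 5490, against 8076 with quality weights and 2549 to 8166 without 1 mouse. With the replicate number as a block, 1 of the 10 (Tubb3) and 6.58% of all tested genes were called lower, with 3546 genes called in both directions. The labels do not say whether the numbers pair the mice. Same-numbered mice deviated together with correlations of −0.0455, −0.103, −0.00821 and 0.00126, and differently numbered mice with −0.112 to 0.125. These correlations cannot exclude a shared batch. In the lists, 19 of 54 named genes were called without any 1 mouse, 14 of 22 that rose and 5 of 32 that fell. Depth gave each member far more than 3 counts in every library.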

Other observations

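Lists of neuron classes rich in neurofilament were read after the main comparisons. Of 8 markers of parvalbumin interneurons, 6 were called lower and none higher (median log2 fold change −0.72), where 12.8% of all tested genes were called lower. The neuronal reference had a median of −0.71. Called lower were Erbb4, Gad1, Pvalb, Syt2 and the potassium channel genes Kcnc1 and Kcnc2. Kcnc1 fell from 289 ± 53.9 to 162.5 ± 47.4 CPM and Kcnc2 from 153.5 ± 12.95 to 86.7 ± 34.9 CPM (SD, n = 4, edgeR adjusted p = 0.0243 and 0.0418). Gad2 and Tac1 were not called (log2 fold changes 0.02 and 0.54). The count of 6 became 0 without Sham mouse 1, 2 or 4 or BCAS mouse 3 or 4 and 1 when scaled by library size alone. Of 8 markers of deep-layer projection neurons, 2 were called lower and none higher (median −0.18). These were Tbr1, a transcription factor of layer 6 neurons, from 203 ± 25.5 to 94.7 ± 40.6 CPM, and Pcp4, a calmodulin regulator, from 19.9 ± 3.63 to 11.9 ± 2.18 CPM (SD, n = 4, edgeR adjusted p = 0.0229 and 0.0185), and without Sham mouse 1, 2 or 4 neither was called. Of 5 markers of oligodendrocyte precursors 3 were called higher, Cspg4 (log2 fold change 1.25), Gpr17 and Pdgfra, and of 6 endothelial markers 2, Cdh5 (0.87) and Pecam1 (edgeR adjusted p for Cspg4 and Cdh5 = 0.00331 and 0.0183), with 1 to 4 and 0 to 2 called without 1 mouse.

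Within the set, each gene was also compared with the mean log2 CPM of the other 9, a comparison chosen after the values were seen. The BCAS mean of this value minus the Sham mean was −0.24 for Nefl, with all 4 BCAS mice below all 4 Sham mice, and 0.25 for Mapt, with all 4 above (exact two-sided permutation p = 0.0286 for each, the smallest possible, and 0.143 after adjustment over the 10 genes). Nefl and Mapt alone could not pass after that adjustment, even at the smallest p. Nefm stood at −0.37 and Gap43 at 0.44 (exact permutation p = 0.0857 and 0.143), and the other 6 had p from 0.143 to 0.514.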
